A study of Mus musculus with 12 samples.

Results

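Treadmill training alone was examined in mouse quadriceps by setting the 3 exercise arrays, from trained mice given vehicle, against the 3 vehicle arrays, from sedentary mice given vehicle. These 6 arrays, taken by their sample titles, are 6 of the 12 in the series. Every group held C57Bl/6J mice treated for 4 weeks, and each array carried total RNA pooled from 3 mice, so a group of 3 arrays stands for 9 mice. The other 6 arrays, 3 of sedentary and 3 of trained mice given GW1516 at 5 mg/kg/day, an agonist of the nuclear receptor PPARδ, are called GW and combination here and are used only where named. The mice were killed at the end of the 4 weeks and the muscle was frozen at once, but the labels do not give the time since the last run, so a lasting effect of training and a passing effect of a recent run cannot be told apart. Pooling also hides the spread between single mice, and p-values here measure the spread between pools.

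Endurance training is known to shift skeletal muscle toward oxidative metabolism, with more mitochondria and capillaries, more fatty acid use and a move among fast fibres from the fastest myosin to more oxidative ones. A single run is known to switch on immediate early genes, heat shock genes and genes of fuel use for minutes to hours, while repeated runs leave slower changes in contractile and mitochondrial proteins. The quadriceps of the mouse is made almost wholly of fast fibres.

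Values are the MAS5 signals of single probe sets, which are linear, have no physical unit and are scaled to the same trimmed mean on every array. A log2 fold change is the mean log2 signal of the exercise arrays minus that of the vehicle arrays, given ± its standard error, so a positive value means a higher signal after training. The test covered 13575 of 22626 probe sets, those whose signal averaged more than 28.4, and where genes are counted each of 7940 genes is represented by its probe set with the highest mean signal. Adjusted p-values come from limma with the Benjamini-Hochberg adjustment over all 13575. The main fit used all 12 arrays to estimate the spread, and the alternative used only the 6 arrays compared. Every ± is the standard error of the 12-array fit, also where a 6-array p-value stands beside it. Fewer cells of a type and less RNA per cell cannot be told apart in these whole-muscle pools.

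The arrays carried the signals of fast muscle. Myh4, the fastest myosin heavy chain, read between 17124 and 20747 in the 6 arrays, and Ckm, the muscle creatine kinase, between 18590 and 22765, while Myh7, the slow myosin, stayed at or below 17.7 and was not tested. Each array correlated with those of its own group at a mean Pearson r of 0.958 to 0.968 over probe sets and with the other group at 0.952 to 0.959. The median signal was 48.4, 49.5 and 53.0 in the vehicle arrays and 54.0, 54.5 and 57.2 in the exercise arrays. The groups thus did not overlap in median signal, although every array was scaled to the same trimmed mean. The ratio of the 3′ to the 5′ actin control probe set, a sign of RNA integrity, was 0.838 to 1.10 in the vehicle arrays and 0.763 to 0.816 in the exercise arrays. The same ratio for Gapdh overlapped, at 0.890 to 0.906 in the vehicle arrays and 0.896 to 0.940 in the exercise arrays. The part of these array differences in the gene results was not tested.

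With all 12 arrays, 1 probe set was higher and 1 was lower after training at an adjusted p under 0.05, which is 0.0147% of those tested. Egr1 (Entrez gene 13653), an immediate early transcription factor, rose by 3.57 ± 0.53 on the log2 scale (limma adjusted p = 0.0469), from signals of 85.3, 57.9 and 78.7 to 794, 869 and 937. Kif1b (Entrez gene 16561), a kinesin motor that moves mitochondria and vesicles along microtubules, fell by 0.62 ± 0.09 (limma adjusted p = 0.0469), from 991, 964 and 1033 to 681, 620 and 647. Every exercise array lay apart from every vehicle array in both. Both calls ended when any single vehicle or exercise array was left out of the 12-array fit, with adjusted p-values from 0.0602 (Egr1) and 0.065 (Kif1b) without vehicle array 1 to 0.221 (both) without vehicle array 2.

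The 6 arrays fitted on their own gave 33 probe sets, 0.243% of those tested, of which 30 were higher (0.221%) and 3 lower, and both 12-array calls were among them. They belonged to 23 genes and 2 probe sets that match several globin genes each. Among the genes were 7 heat shock genes, 7 immediate early genes and 9 others, and in each of the 33 the exercise and vehicle arrays did not overlap. At an unadjusted p under 0.05 the 12-array fit had 773 probe sets higher and 644 lower, and the 6-array fit 851 and 685. Between the fits the fold changes are identical, and only the estimate of the spread differs. For the stress genes that estimate included a combination array that stood apart. Hspa1b, a stress-induced chaperone of the 70 kDa family, read between 1340 and 1939 over its probe sets in combination array 1 and no higher than 208 in combination arrays 2 and 3. Without combination array 1, the fit of the remaining 11 arrays called 20 probe sets.

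**Figure D1:**
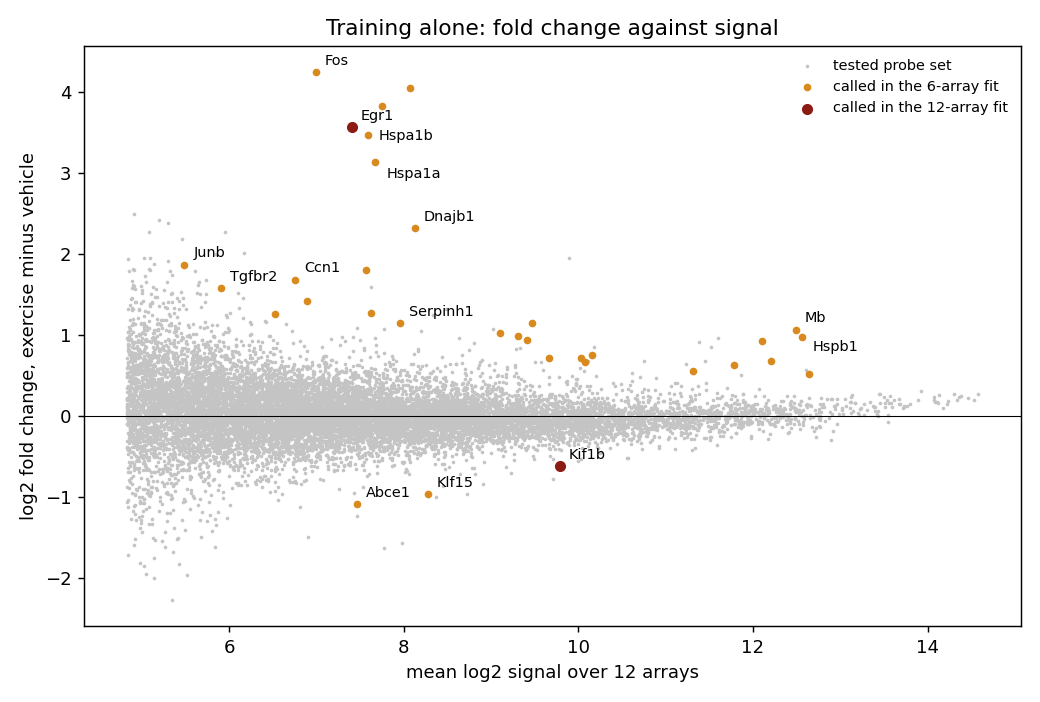
All probe sets tested, with the mean log2 signal over the 12 arrays on the horizontal axis. The vertical axis is the log2 fold change of exercise against vehicle. Named points are probe sets called in the 12-array or the 6-array fit. Fos (4.25), Hspa1b (3.83) and Egr1 (3.57) stand at the top and Abce1 (-1.09) and Klf15 (-0.97) lie among the lowest called genes.

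Leaving out each of the 6 arrays in turn separated the calls of the 6-array fit. Of the 33 probe sets, 11 were called in all 6 of these fits, and they belong to 7 genes: Egr1, Fos, Dnajb1, Hspa1a, Hspa1b, Hsp90aa1 and Hspb1. The other 22 lost the call on leaving out at least 1 array, and 2 of them, Abce1 and Hspb8, in all 6 fits. Of the 33, 31 were still called without vehicle array 1, where the total was 85, and between 11 and 15 were still called without any other single array.

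The immediate early genes, whose products are transcription factors and feedback inhibitors made within minutes of a stimulus, included the widest changes. Fos (Entrez gene 14281), a partner in the AP-1 transcription factor, read 49.3, 54.2 and 48.3 in the vehicle arrays and 900, 872 and 1127 in the exercise arrays, a log2 fold change of 4.25 ± 0.66 (limma adjusted p = 0.053 with 12 arrays and 2.98e-07 with 6). Dusp1 (Entrez gene 19252), a phosphatase that switches off stress-activated kinases, read 519, 448 and 690 against 1051, 1067 and 1115 (log2 0.99 ± 0.20, adjusted p = 0.0246 with 6 arrays). Btg2, an antiproliferative gene, read 113, 158 and 149 against 260, 347 and 419 in one of its 2 called probe sets (log2 1.28 ± 0.27). In each of these 3 genes the lowest exercise array was above the highest vehicle array. The Dusp1 call ended without vehicle array 2 (limma adjusted p = 0.0727), exercise array 1 (0.0838), exercise array 2 (0.108) or exercise array 3 (0.117). The Btg2 call ended without vehicle array 2 (limma adjusted p = 0.0727), vehicle array 3 (0.0833), exercise array 2 (0.148) or exercise array 3 (0.13).

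Among chaperones, the cytosolic ones stood apart from those of the endoplasmic reticulum. Hspa1b (Entrez gene 15511) read 93.5, 108 and 39.6 in the vehicle arrays and 961, 906 and 1322 in the exercise arrays in one of its 3 probe sets (log2 3.83 ± 0.86, limma adjusted p = 0.000374 with 6 arrays and 0.199 with 12). Hspb1 (Entrez gene 15507), a small chaperone that guards actin and desmin filaments, read 4902, 4105 and 3724 against 7703, 8295 and 9022 (log2 0.98 ± 0.31, 6-array adjusted p = 0.00159). Neither gene had an exercise array as low as any vehicle array. Hspa1a and Hspa1b are near-identical copies, so their probe sets cannot be assigned to one of them with certainty. Of 20 endoplasmic reticulum chaperone genes tested, 10 had positive values, the median log2 fold change was -0.02, and the sole called probe set was one of Serpinh1. Serpinh1 (Entrez gene 12406), the chaperone that folds procollagen, read 239, 173 and 195 in the vehicle arrays and 389, 461 and 485 in the exercise arrays, which did not overlap (log2 1.14 ± 0.20, adjusted p = 0.0874 with 12 arrays and 0.0154 with 6). Its brighter probe set read 264, 239 and 187 against 331, 405 and 439, also apart, and did not pass (log2 0.77 ± 0.16, adjusted p = 0.151 and 0.127). The called probe set lost the call without vehicle array 2 (limma adjusted p = 0.0727), vehicle array 3 (0.0657), exercise array 2 (0.0906) or exercise array 3 (0.1).

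Promoter sequence was read for the called genes from RefSeq on GRCm38.p6. The windows ran from 250 bases before the start of a gene to 50 after it, and 19 of the 23 genes had a window. Egr1, Ier2, Hsp90aa1 and Clu had no window and were not read. The stretches shown are the 200 bases before the start, for the called genes that hold the cyclic AMP response element TGACGTCA and for a pair of heat shock genes with the short heat shock motif, GAANNTTC or TTCNNGAA, read on both strands. Capitals mark the motif. They lie at chr17:26508473-26508672 on the minus strand (Dusp1), chr1:134079156-134079355 minus (Btg2), chr8:79711741-79711940 minus (Abce1), chr17:34959239-34959438 minus (Hspa1b) and chr5:135887719-135887918 plus (Hspb1), and are written 5′ to 3′ on the strand of the gene.
Dusp1: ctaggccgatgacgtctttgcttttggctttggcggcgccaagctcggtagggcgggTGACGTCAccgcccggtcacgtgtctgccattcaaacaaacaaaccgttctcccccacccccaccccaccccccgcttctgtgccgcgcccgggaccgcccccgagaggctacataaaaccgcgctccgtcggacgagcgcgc
Btg2: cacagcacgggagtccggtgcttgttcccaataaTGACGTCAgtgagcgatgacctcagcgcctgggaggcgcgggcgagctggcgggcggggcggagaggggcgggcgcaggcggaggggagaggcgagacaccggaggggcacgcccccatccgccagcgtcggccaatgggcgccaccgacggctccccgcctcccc
Abce1: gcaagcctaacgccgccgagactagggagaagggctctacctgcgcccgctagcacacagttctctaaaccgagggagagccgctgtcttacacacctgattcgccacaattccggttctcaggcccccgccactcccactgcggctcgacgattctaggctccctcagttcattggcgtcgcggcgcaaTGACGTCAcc
Hspa1b: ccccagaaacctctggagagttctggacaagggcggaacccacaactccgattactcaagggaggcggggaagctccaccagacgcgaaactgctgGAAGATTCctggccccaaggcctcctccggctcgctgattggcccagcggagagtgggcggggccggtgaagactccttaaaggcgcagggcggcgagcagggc
Hspb1: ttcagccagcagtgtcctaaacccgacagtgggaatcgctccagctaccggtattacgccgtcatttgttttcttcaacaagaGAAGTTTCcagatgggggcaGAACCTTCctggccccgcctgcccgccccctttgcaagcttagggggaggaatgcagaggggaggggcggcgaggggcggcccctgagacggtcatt
The element TGACGTCA was present in 3 of the 19 genes and in 1.79% of all 32851 windows, and its first base lay 143 bases before the start in Dusp1, 166 in Btg2 and 10 in Abce1. Of these 3 genes, Dusp1 and Btg2 were higher after training and Abce1 was lower. The short heat shock motif was present in 8 of the 19 genes and in 15.1% of all windows, and the 8 were Hspa1a, Hspa1b, Hspb1, Hspb8, Bag3, Ccn1, Ckmt2 and Klf15. The longer heat shock element, in which a further GAA or TTC follows, overlaps it and was in 0.603% of all windows and in none of the 19 genes. The serum response motif known as the CArG box (1.63% of windows) and the MEF2 motif (0.557%) were likewise not in these windows. Sequence further than 250 bases before the start was not read. A match describes letters in a window and not a bound site.

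Of the 9 called genes outside the immediate early and heat shock lists, 3 belong to oxidative metabolism. Ucp3 (Entrez gene 22229), a carrier of the inner mitochondrial membrane that muscle raises when fatty acid supply is high, read 723, 549 and 635 in the vehicle arrays and 1049, 1106 and 953 in the exercise arrays (log2 0.71 ± 0.12, limma adjusted p = 0.0815 with 12 arrays and 0.0451 with 6). Its second probe set read 439, 386 and 465 against 665, 747 and 706 (log2 0.72, 6-array adjusted p = 0.0284). Ckmt2 (Entrez gene 76722), the mitochondrial creatine kinase that hands energy from ATP to creatine, read 5917, 5339 and 4969 against 7467, 8227 and 7560 (log2 0.52 ± 0.10, 6-array adjusted p = 0.0246). Mb (Entrez gene 17189), myoglobin, which holds oxygen in oxidative fibres, read 5513, 3931 and 3225 against 8241, 10002 and 7791 (log2 1.07 ± 0.28, 6-array adjusted p = 0.0284 and 0.251 with 12 arrays). None of these 4 probe sets had an overlap between groups, and in 3 of them vehicle array 1 was the highest of its group. All 4 kept the call without vehicle array 1, Mb with a limma adjusted p of 0.000433, and each lost it without any other single array (0.0657 to 0.227).

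Clu, Tgfbr2 and Serpinh1 were the other called genes that were higher. Clu (Entrez gene 12759), an extracellular chaperone, read 1110, 891 and 859 in the vehicle arrays and 1453, 1761 and 1575 in the exercise arrays in its called probe set (log2 0.75 ± 0.24, limma adjusted p = 0.0284 with 6 arrays). Its other 3 probe sets tested, with log2 fold changes of 0.67, 0.68 and 0.84, also had every exercise array above every vehicle array. Tgfbr2 (Entrez gene 21813), a receptor for transforming growth factor beta, read 35.5, 29.9 and 33.1 against 115, 82.4 and 99.1 in one probe set (log2 1.58 ± 0.36, 6-array adjusted p = 0.0468), but 245, 257 and 246 against 297, 264 and 247 in the other, which overlapped (log2 0.11). Serpinh1 is given above. Clu and Tgfbr2 kept the call without vehicle array 1 (limma adjusted p = 0.00351 and 0.0403) and lost it without each other array (0.0698 to 0.218).

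The 3 called genes that fell were Kif1b, Klf15 and Abce1. Klf15 (Entrez gene 66277), a transcription factor induced by glucocorticoids and fasting that drives amino acid breakdown in muscle, read 359, 351 and 425 in the vehicle arrays and 169, 195 and 215 in the exercise arrays (log2 -0.97 ± 0.16, limma adjusted p = 0.0815 with 12 arrays and 0.0246 with 6). Abce1 (Entrez gene 24015), which recycles ribosomes after translation ends, read 264, 203 and 310 against 135, 116 and 109 (log2 -1.09 ± 0.22, 6-array adjusted p = 0.0468). In both, the highest exercise array was below the lowest vehicle array. The second Abce1 probe set overlapped between groups, with 734, 655 and 744 against 659, 557 and 611 (log2 -0.22). Kif1b has 7 probe sets tested, and the others differ in direction: one read 732, 674 and 694 against 553, 451 and 523 (log2 -0.46) and another 167, 183 and 183 against 218, 193 and 200 (log2 0.20). Without vehicle array 1 Klf15 and Kif1b kept the call (limma adjusted p = 0.0246 and 0.0257) and Abce1 did not (0.0689); each of the 3 lost it without any other array (0.0569 to 0.182).

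Globin probe sets shared by several genes were higher after training. A called probe set shared by the beta-globin genes of red cell precursors read 2637, 2922 and 2718 in the vehicle arrays and 4863, 3837 and 4139 in the exercise arrays (log2 0.63, limma adjusted p = 0.0246 with 6 arrays). A called probe set shared by the alpha-globin genes read 3666, 3701 and 3476 against 6568, 4960 and 5916 (log2 0.68, 6-array adjusted p = 0.0209). Another probe set shared by the alpha-globin genes did not pass, at 2357, 2136 and 2098 against 3395, 2950 and 4345 (log2 0.68, 6-array limma adjusted p = 0.0749). No exercise array was as low as a vehicle array in any of the 3. These probe sets carry several gene symbols and were singled out after their values were seen. Of 11 listed blood cell markers 2 were tested, Alas2 and a single-symbol alpha-globin probe set of Hba-a2, and neither separated the groups. Their summed signal was low, 44.2 to 93.6 in the vehicle arrays and 70.9 to 116 in the exercise arrays. Both calls held without vehicle array 1 or exercise array 2 and ended without vehicle array 2 (limma adjusted p = 0.0727 for both), vehicle array 3 (0.0887 and 0.0833), exercise array 1 (0.0698 for both) or exercise array 3 (0.1 for both).

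Across the whole ranking, most differences were small. All 3 exercise arrays lay above all 3 vehicle arrays in 695 genes (8.75% of 7940) and below them in 745 (9.38%). The median log2 fold change over all genes was -0.01. On the log2 scale 123 genes were above 1 and 45 below -1, and 100 of these 168 separated the groups. Their median mean signal was 38.4, against 170 for all genes, so the largest folds were mostly read from dim probe sets. Beyond 2 on the log2 scale there were 10 genes above and 1 below.

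The direction of the response moved with brightness. Over 10 bands of 794 genes each, from the dimmest to the brightest, the median log2 fold change was 0.23 in the first band, 0.10 in the second, and between -0.05 and 0.03 in the other 8. Genes with all exercise arrays below all vehicle arrays made up 3.15% of the dimmest band and 18.8% of the ninth. In the 100 genes of highest signal the median was 0.11, and 47% of them had all exercise arrays above all vehicle arrays, against 3% below. After quantile normalization the median of the dimmest band was 0.03 and that of the top 100 was -0.00. For several lists the quantile-normalized median is given beside the deposited one, and the plot of list medians shows it for all 44.

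**Figure D2:**
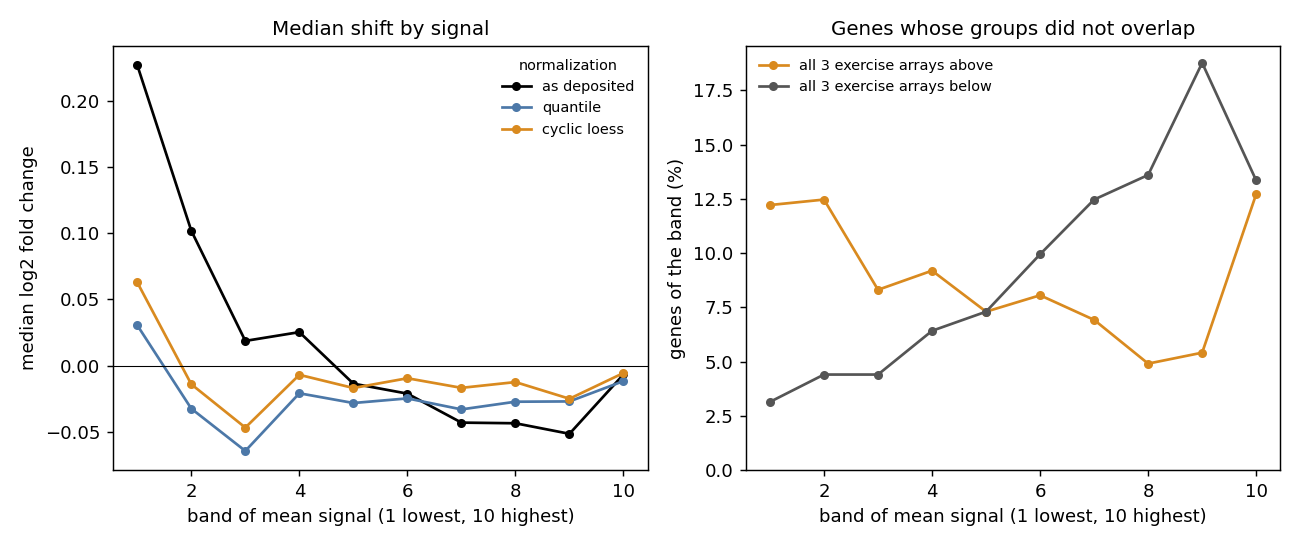
Left, the median log2 fold change of exercise against vehicle in 10 bands of genes ordered by mean signal, on the deposited scale and after quantile and cyclic loess normalization. Right, the percentage of genes in each band with all 3 exercise arrays above or below all 3 vehicle arrays; the share below climbs from 3.15% in the dimmest band to 18.8% in the ninth.

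The gene lists were read against these backgrounds, in which 8.75% of genes lay wholly above and 9.38% wholly below. Of 44 lists, 29 had a median log2 fold change above 0, and 32 kept the sign of their median under every other processing tried. A list median is a description of the genes tested and carries no test here. Of 23 immediate early genes tested 19 had positive values and 13 lay wholly above the vehicle arrays, with none wholly below, at a median log2 fold change of 0.80. Of 26 heat shock genes 22 were positive and 16 wholly above, at a median of 0.29, and vehicle array 1 was the highest of its group in 21 of them, as it was in 36.0% of all genes.

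**Figure D3:**
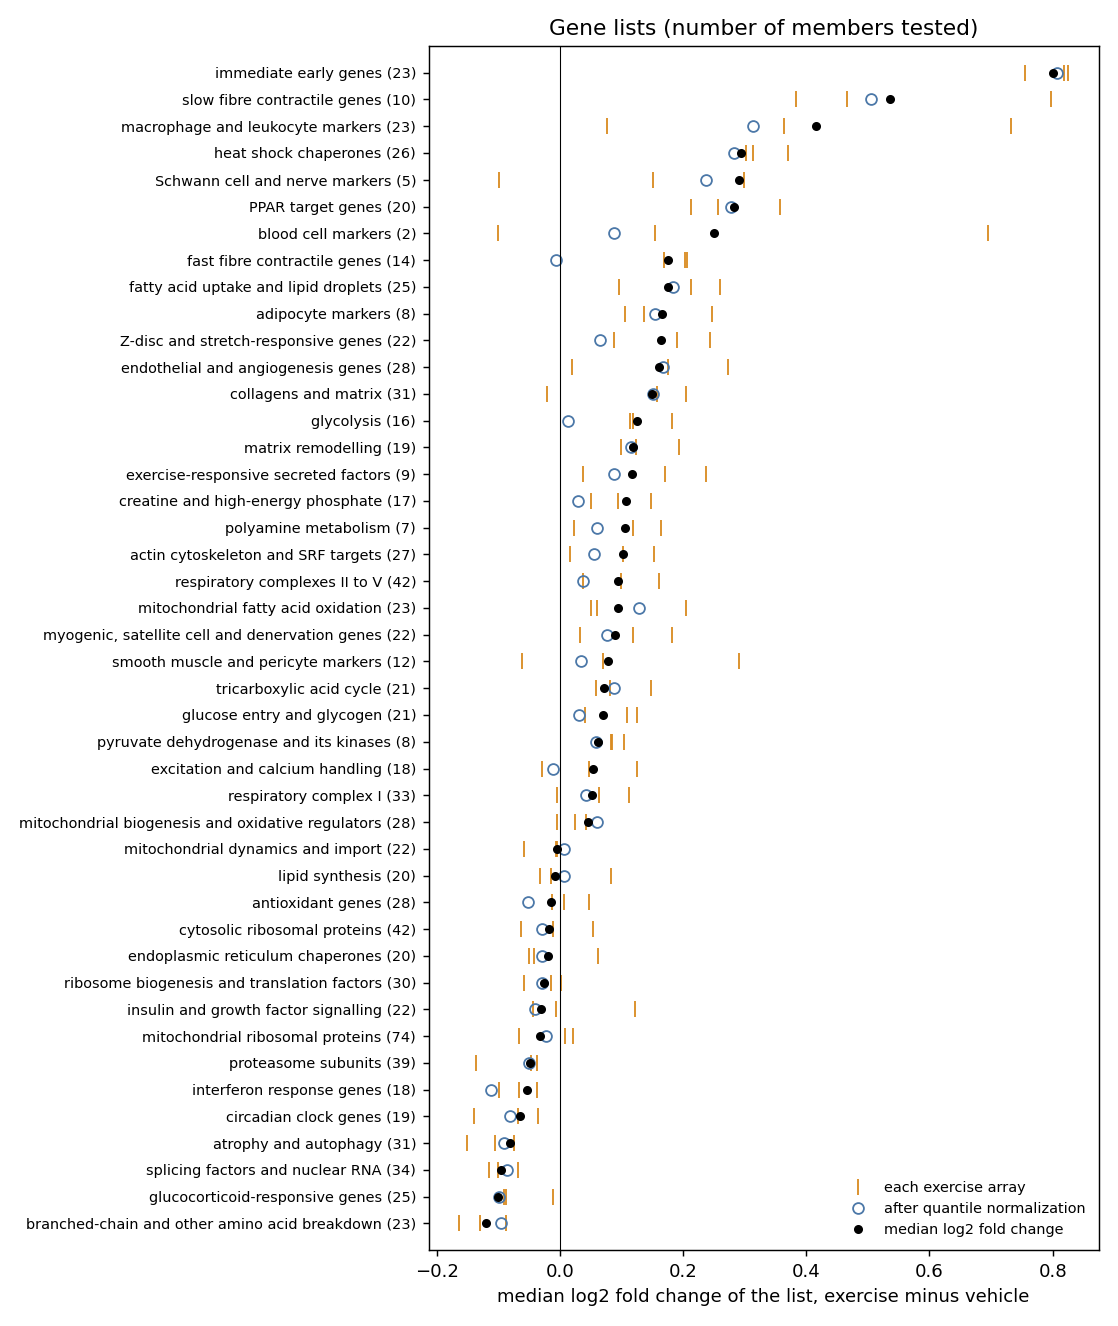
Median log2 fold change of exercise against vehicle over the tested genes of each of 44 lists (filled points), with each exercise array against the vehicle mean as ticks and the quantile-normalized median as open circles. Immediate early genes (0.80), slow fibre genes (0.54) and macrophage markers (0.42) have the highest medians, and branched-chain and other amino acid breakdown (-0.12) the lowest.

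Fast fibre contractile genes, which encode the myosins, light chains, troponins and calcium pump of the mouse quadriceps, were 14 in number, 13 with positive values and 12 with all exercise arrays above all vehicle arrays (median log2 0.18). Quantile normalization brought that median to -0.01 with 6 of 14 positive, and 12 of the 14 were among the 200 genes of highest signal. Myl1, a fast alkali light chain, read 12972, 14566 and 14297 against 17125, 16995 and 17501 (log2 0.30, 0.12 after quantile normalization). Myh4 read 17124, 17961 and 18391 against 19514, 20747 and 20413, which did not overlap (log2 0.18), and turned to -0.05 after quantile normalization. The top signals as a group, given above, were shifted the same way, and the part of that shift in this list was not tested.

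Among the more oxidative fast myosins, values differed by probe set. Myh1, the myosin of intermediate fast fibres, read 3318, 2151 and 1862 in the vehicle arrays and 4164, 5032 and 4663 in the exercise arrays (log2 0.96 ± 0.24), a second probe set gave 0.85 ± 0.20 (limma adjusted p = 0.219 with 12 arrays and 0.166 with 6), and its remaining one, at low signal, overlapped between groups (0.20 ± 0.71, and 0.04 after quantile normalization). Myh2, the myosin of the most oxidative fast fibres, read 1191, 384 and 248 against 1859, 2339 and 1508 (log2 1.95 ± 0.73, adjusted p = 0.375 and 0.15). The groups did not overlap in the probe sets whose signals are given, but vehicle array 1 stood above the other vehicle arrays in both. Neither passed the test. The myosin heavy chain genes are close copies of each other, and a probe set may read more than one of them.

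Slow fibre contractile genes were all positive, 10 of 10 tested, with a median log2 fold change of 0.54 (0.50 after quantile normalization), though 2 of them separated the groups. Those 2 were Mb, given above, and the tropomyosin gene Tpm3, at 158, 178 and 118 against 192, 243 and 221 (log2 0.55 ± 0.20, limma adjusted p = 0.374), whose other, dimmer probe set overlapped at -0.24 ± 0.43. Ankrd2, a stretch-sensitive protein of slow fibres, read 233, 103 and 74.3 against 205, 306 and 160 and overlapped (log2 0.83 ± 0.87). Vehicle array 1 was the highest of its group in 7 of the 10 slow fibre genes, against 36.0% of all genes.

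Z-disc and stretch-responsive genes, which anchor the thin filaments and sense load, had 20 of 22 positive values and a median of 0.16 (0.07 after quantile normalization), and 6 separated the groups. Actn2, the alpha-actinin of all fibres, read 1310, 829 and 665 in the vehicle arrays and 1416, 1981 and 1493 in the exercise arrays (log2 0.85 ± 0.32). Ldb3, a Z-disc scaffold, read 3053, 3123 and 2536 against 3158, 3967 and 3962 (log2 0.35 ± 0.11), with 0.22 and 0.16 in its other probe sets. In each the lowest exercise array stood just above the highest vehicle array. Neither passed the test (limma adjusted p = 0.375 and 0.301). Among 27 actin cytoskeleton genes 18 were positive, with a median of 0.10, and Tmsb4x, which binds actin monomers, read 1283, 1106 and 1138 against 1516, 1463 and 1701 (log2 0.41 ± 0.13).

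Respiratory chain genes moved by little. Of 42 genes of complexes II to V, 34 had positive values and 13 lay wholly above the vehicle arrays, with a median of 0.09 (0.04 after quantile normalization), and 30 of the 42 were among the 200 genes of highest signal. Of 33 complex I genes 27 were positive, with a median of 0.05, and 6 lay wholly above and 1 wholly below. Cox4i1, a subunit of cytochrome oxidase often read as a training marker, stood at 6670, 7330 and 6944 against 8032, 8706 and 7516, without overlap (log2 0.21 ± 0.09, limma adjusted p = 0.437). Cycs, cytochrome c, had 3 probe sets at 0.28, 0.15 and 0.06 on the log2 scale, and only the first separated the groups, with 3812, 3291 and 3253 against 4106, 4372 and 4037. Chchd10, a small protein of the mitochondrial cristae and one of the 20 highest t values outside the immediate early and heat shock lists, read 10506, 10075 and 9759 against 11594, 12413 and 12557 (log2 0.27 ± 0.07, 0.11 after quantile normalization, adjusted p = 0.226), but its other probe set overlapped at -0.14 ± 0.12.

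The tricarboxylic acid cycle list had 16 of 21 positive values and a median of 0.07 (0.09 after quantile normalization). Cs, citrate synthase, a common measure of mitochondrial content, stood at 0.18, 0.08 and -0.02 on the log2 scale over 3 probe sets. The last of these read 5275, 5268 and 4881 against 5061, 5237 and 4879, with full overlap. Among 28 oxidative regulators the median was 0.05. Ppargc1a, the coactivator PGC-1alpha that is known to respond within hours of a run, overlapped in all 5 probe sets tested, with log2 fold changes from -0.37 to 0.33. Tfam, which maintains mitochondrial DNA, read 262, 262 and 261 against 271, 325 and 256 (log2 0.11 ± 0.13). Mitochondrial ribosomal proteins (74 genes, median -0.03) and mitochondrial dynamics genes (22 genes, median -0.00) stood near the median of all genes, and their signs turned in 2 and 3 other settings, respectively.

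Genes under PPAR control, which fatty acids switch on, had 18 of 20 positive values and a median of 0.28 on both scales, and 7 lay wholly above the vehicle arrays. Fabp3, the fatty acid carrier of muscle cytosol, read 3048, 2420 and 2195 against 3288, 3886 and 3635 (log2 0.51 ± 0.12, limma adjusted p = 0.219 with 12 arrays and 0.152 with 6). Pdk4, the kinase that turns pyruvate away from oxidation, read 2074, 1229 and 1284 against 2395, 3310 and 2750 (log2 0.91 ± 0.23, adjusted p = 0.244 and 0.113). Mlycd, which breaks down malonyl-CoA and so frees fatty acid entry into mitochondria, read 498, 482 and 478 against 604, 587 and 719 (log2 0.38 ± 0.10). The groups did not overlap in these 3 genes, and Ucp3 was the member that was called. In Fabp3 and Pdk4, vehicle array 1 lay closest to the exercise arrays. Over the list it was the highest of its group in 14 of the 20 genes, against 36.0% of all genes.

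Fatty acid uptake and lipid droplet genes had 17 of 25 positive values and a median of 0.18, with log2 fold changes from -0.40 to 0.71. Of the 25, 5 (20%) lay wholly above the vehicle arrays and 2 (8%) wholly below, against 8.75% and 9.38% of all genes. Vehicle array 1 was the highest of its group in 16 of them, against 36.0% of all genes. Cd36, a fatty acid transporter of the cell surface, read 390, 297 and 307 against 498, 476 and 451 (log2 0.53 ± 0.19). Lpl, the lipase that frees fatty acids in capillaries, read 2656, 2303 and 2224 against 2945, 3318 and 3275 (log2 0.41 ± 0.16). Neither overlapped between groups or passed the test (limma adjusted p = 0.348 and 0.398). Mitochondrial fatty acid oxidation genes had 20 of 23 positive values but a median of 0.09, and Acadl, a long-chain acyl-CoA dehydrogenase, read 1196, 1117 and 1042 against 1411, 1553 and 1224 (log2 0.32 ± 0.10). Adipocyte markers had a median of 0.17 over 8 genes, none of the 8 separated the groups, and their summed signal was 6847 to 7495 in the vehicle arrays and 6684 to 8234 in the exercise arrays.

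Genes of glycolysis, the quick fuel route of fast fibres, had 13 of 16 positive values and a median of 0.13, which became 0.01 after quantile normalization, and 8 of them were among the 200 genes of highest signal. Ldhb, the lactate dehydrogenase chain of oxidative fibres, had the largest value of that list, with 579, 289 and 236 against 587, 891 and 704 (log2 1.07 ± 0.41) in one probe set and 348, 160 and 145 against 433, 513 and 489 (log2 1.25 ± 0.37, limma adjusted p = 0.297) in the other. Slc2a4, the insulin-sensitive glucose transporter GLUT4, overlapped in both probe sets (log2 0.32 and 0.03). Hk2, the hexokinase of muscle, read 3749, 3455 and 3428 against 3572, 3548 and 3504 (log2 -0.00 ± 0.08). Creatine and high-energy phosphate genes had 13 of 17 positive values and a median of 0.11 (0.03 after quantile normalization), with Ckmt2 as the called member.

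**Figure D4:**
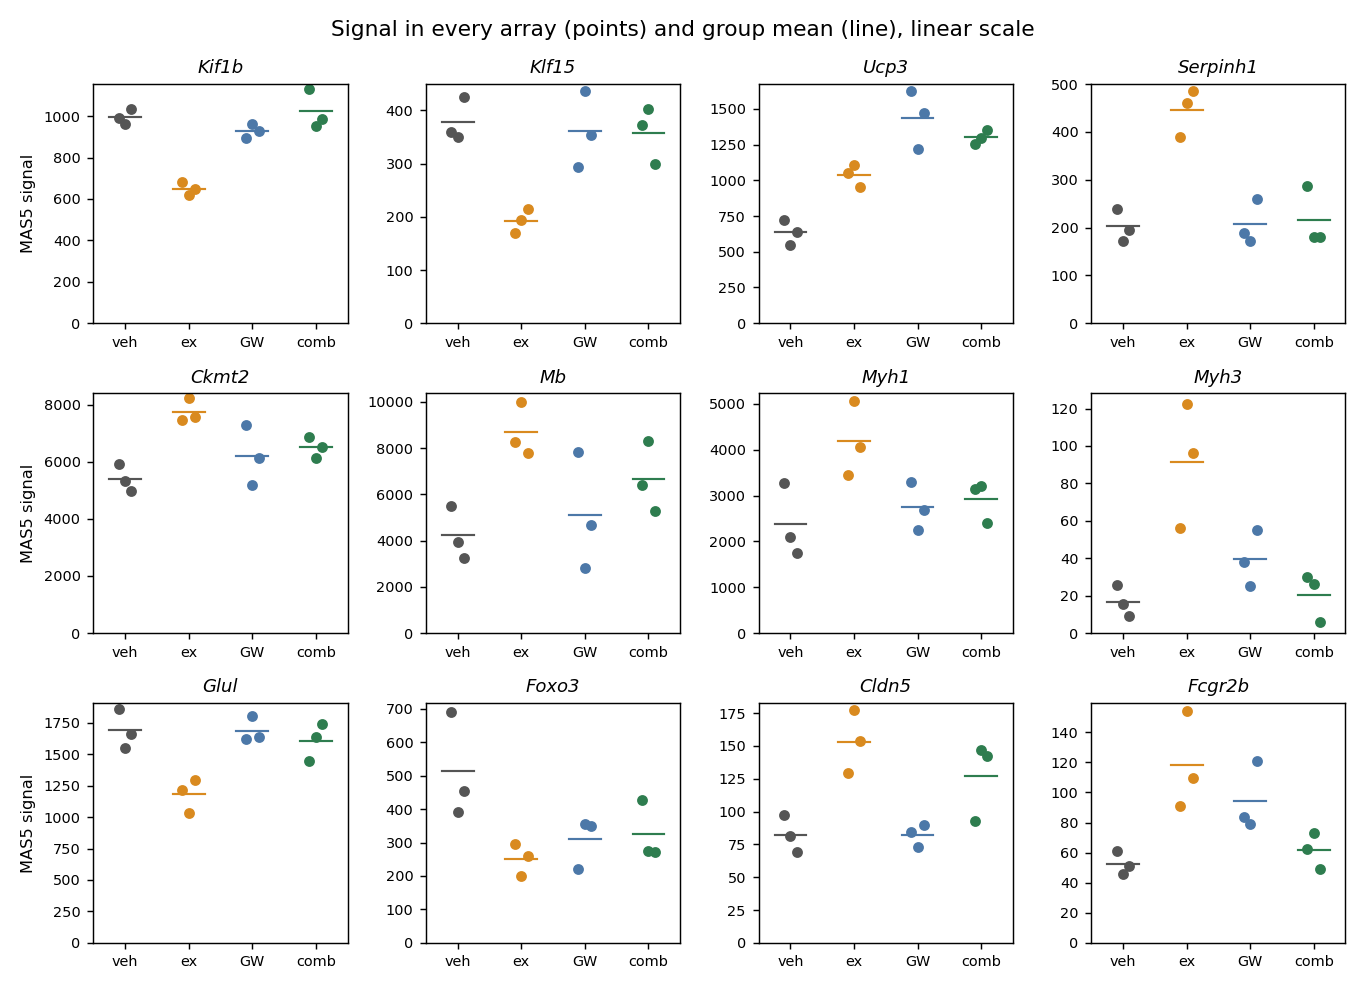
MAS5 signal on a linear axis in every array of the vehicle, exercise, GW and combination groups for 12 genes; points are arrays and lines are group means. Kif1b, Klf15, Glul and Foxo3 are lower in all 3 exercise arrays than in all 3 vehicle arrays and the other 8 genes are higher, while between the GW and combination groups, Cldn5 is the only panel with the same separation.

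Of 28 endothelial and angiogenesis genes 21 had positive values and 10 (35.7%) lay wholly above the vehicle arrays, against 8.75% of all genes, with a median of 0.16 (0.17 after quantile normalization). Cldn5, a tight junction protein of endothelium, read 97.0, 81.1 and 69.0 against 129, 177 and 153 (log2 0.90 ± 0.22, limma adjusted p = 0.225 with 12 arrays and 0.152 with 6). Egfl7, a secreted factor of growing vessels, read 209, 260 and 207 against 320, 362 and 315 (log2 0.57 ± 0.15). Its brightest probe set, the one counted in the list, also separated the groups at 0.32 ± 0.12, and of its other 2 (0.68 and 0.48) the first overlapped. Vegfa, the main signal for capillary growth, read 261, 232 and 239 against 295, 301 and 308 in one probe set (log2 0.31 ± 0.18) and 127, 182 and 203 against 251, 236 and 188 in the other, which overlapped. The summed signal of the list was 5494 to 5698 in the vehicle arrays and 5801 to 6559 in the exercise arrays, without overlap. Against the vehicle mean, however, the list medians of exercise arrays 1, 2 and 3 were 0.02, 0.18 and 0.27. Exercise array 1 was the lowest of its group in 16 of the 28 genes, against 33.5% of all genes. No endothelial gene was called. The globin probe sets shared by several genes, given above, were also higher in all 3 exercise arrays, and their part in these values was not tested.

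Collagen and matrix genes had 23 of 31 positive values and a median of 0.15, but 1 lay wholly above and 1 wholly below the vehicle arrays. The gene wholly above was Col4a1, a chain of basement membrane collagen, with 384, 342 and 363 against 444, 496 and 501 (log2 0.40 ± 0.16). The gene wholly below was Pdgfra, the receptor that marks connective tissue progenitors, with 145, 83.3 and 75.1 against 54.5, 70.0 and 41.1 (log2 -0.84 ± 0.33), though a dimmer probe set overlapped at 0.34 ± 0.36. Vehicle array 1 was the highest of its group in 23 of these 31 genes. Col3a1, a fibrillar collagen, overlapped at 1481, 1145 and 948 against 1593, 1588 and 1282 (log2 0.34 ± 0.15).

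Macrophage and leukocyte markers had 22 of 23 positive values and a median of 0.42 (0.31 after quantile normalization), yet only 2 separated the groups. Fcgr2b, an inhibitory antibody receptor of myeloid and B cells, read 61.3, 46.0 and 50.9 against 91.0, 154 and 110 (log2 1.14 ± 0.26, limma adjusted p = 0.21 with 12 arrays and 0.15 with 6), but its other 2 probe sets overlapped at -0.66 and -0.09. Cd68, a lysosomal marker of macrophages, read 70.2, 9.5 and 24.5 against 76.7, 55.8 and 51.7 and overlapped. The summed signal of the list ranged from 2882 to 4770 in the vehicle arrays and from 3532 to 5533 in the exercise arrays, and vehicle array 1 was the highest of its group in 19 of the 23 genes. Taken singly, the exercise arrays had list medians of 0.08, 0.73 and 0.36 against the vehicle mean. Cd3e, Cd79a, S100a8 and S100a9, which mark T cells, B cells and neutrophils, and the cytokines Il1b and Il6 were below the signal filter.

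Myh3, the embryonic myosin that regenerating fibres make, read 25.9, 15.6 and 9.1 in the vehicle arrays and 56.4, 122 and 96.4 in the exercise arrays (log2 2.50 ± 0.62, limma adjusted p = 0.229 with 12 arrays and 0.0924 with 6). Igf2, a growth factor of developing muscle, read 96.6, 119 and 75.8 against 177, 198 and 179 (log2 0.95 ± 0.24, adjusted p = 0.227 and 0.116). Igf1, its counterpart in adult muscle, read 209, 131 and 155 against 245, 274 and 236 (log2 0.63 ± 0.21). Each of the 3 separated the groups and none was called. Every vehicle signal of Myh3 lay below the filter level of 28.4, so its fold change is a ratio to very dim signals. The size of that fold change and the separation of its groups are therefore uncertain. The myogenic list as a whole had 17 of 22 positive values and a median of 0.09; Myog, a factor of muscle differentiation, read 62.8, 106 and 95.0 against 121, 209 and 116, and Pax7, the satellite cell factor, was below the filter.

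Other genes near the top of the ranking have roles in no list. Smad3, which carries the transforming growth factor beta signal to the nucleus, read 87.5, 127 and 155 against 278, 218 and 198 (log2 0.94 ± 0.22). Cd24a, a surface protein of progenitor and immune cells, read 485, 466 and 374 against 677, 645 and 774 (log2 0.67 ± 0.16), with 0.37 and 0.13 in its brighter probe sets, of which the last overlapped. Wnt7b, a secreted Wnt ligand, read 23.9, 12 and 8.0 against 122, 49.6 and 58.7 (log2 2.42 ± 0.58). Its vehicle signals all lay below the filter level of 28.4, so the size of its fold change and the separation of its groups are uncertain. All 3 genes had a limma adjusted p of 0.219 with 12 arrays. In the probe sets whose signals are given, no exercise array reached as low as a vehicle array. Serinc3, a membrane carrier protein, read 761, 875 and 955 against 1206, 1197 and 1217, the closest set of exercise arrays among these (log2 0.49 ± 0.12), while its other 2 probe sets overlapped (0.57 and 0.19).

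On the lower side of the ranking stood Klf15 and genes of the atrophy and amino acid breakdown lists. Of 31 atrophy and autophagy genes 10 had positive values, 7 (22.6%) lay wholly below the vehicle arrays and 2 wholly above, with a median of -0.08. By comparison, 9.38% of all genes and 18.8% of the ninth signal band lay wholly below, and the part of brightness in the list was not tested. Foxo3, a transcription factor that switches on autophagy and the ubiquitin ligases of wasting muscle, read 692, 392 and 454 against 295, 200 and 258 (log2 -1.01 ± 0.24, limma adjusted p = 0.225 with 12 arrays and 0.127 with 6). Its second, dimmer probe set overlapped at 150, 75.3 and 113 against 83.6, 88.7 and 131 (log2 -0.13). Foxo1, its close relative, read 218, 188 and 251 against 134, 161 and 179 (log2 -0.47 ± 0.15). Ddit4l and Sesn1, both brakes on the growth kinase mTORC1, had log2 fold changes of -0.43 ± 0.11 and -0.44 ± 0.13, and in both every exercise array was below every vehicle array.

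Amino acid breakdown had the lowest median of the 44 lists, at -0.12 (-0.10 after quantile normalization), with 5 of 23 positive values. Of the 23 genes, 6 (26.1%) lay wholly below and 2 (8.7%) wholly above, against 9.38% and 8.75% of all genes. In the ninth signal band 18.8% lay wholly below, and the part of brightness here was not tested. Glul, glutamine synthetase, through which muscle exports nitrogen and which glucocorticoids induce, read 1864, 1550 and 1665 against 1216, 1036 and 1297 (log2 -0.52 ± 0.11, limma adjusted p = 0.131 with 12 arrays and 0.117 with 6). Dbt, a subunit of the branched-chain keto acid dehydrogenase, read 260, 327 and 286 against 195, 208 and 220 (log2 -0.48 ± 0.15). Prodh, which opens proline breakdown, read 157, 193 and 179 against 137, 114 and 113 (log2 -0.54 ± 0.20). Trained and sedentary arrays did not overlap in any of these 3. Glucocorticoid-responsive genes were mixed, with 9 of 25 positive, 4 (16%) wholly above and 6 (24%) wholly below. Dusp1 and Pdk4 were on the high side and Klf15, Glul, Foxo3 and Foxo1 on the low side.

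The proteasome and splicing lists had slightly negative medians. Of 39 proteasome subunits 13 had positive values, 9 (23.1%) lay wholly below the vehicle arrays and none above, with a median of -0.05. By comparison, 9.38% of all genes lay wholly below, and 18.8% of the ninth signal band, whose median was also -0.05. Vehicle array 1 was the highest of its group in 24 of the 39 subunits, against 36.0% of all genes. Exercise array 3 was the lowest of its group in 24, against 33.0% of all genes. The part of brightness in these counts was not tested. Psmd1, a scaffold of the proteasome cap, read 1926, 2022 and 2049 against 1816, 1901 and 1613 (log2 -0.17 ± 0.08, limma adjusted p = 0.473). Of 34 splicing and nuclear RNA genes 9 were positive, 7 (20.6%) lay wholly below and 1 above, with a median of -0.10. Neat1, the long RNA that builds paraspeckles, read 5432, 4756 and 5084 against 4155, 3775 and 4620 (log2 -0.29 ± 0.11), and Mbnl1, a regulator of muscle splicing, read 4216, 3638 and 3642 against 3249, 3424 and 3220 (log2 -0.21 ± 0.08). Both separated the groups. Cytosolic ribosomal proteins had a median of -0.02 over 42 genes, which turned to 0.02 without vehicle array 1.

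Several of the lowest t values belong to genes outside the lists. Arl3, a small GTPase of protein trafficking, read 1311, 1429 and 1336 against 1058, 998 and 926 (log2 -0.45 ± 0.09). Asb11, a substrate adaptor of a ubiquitin ligase, read 2567, 2225 and 2242 against 1844, 1708 and 1794 (log2 -0.39 ± 0.08). Wnt4, a Wnt ligand made by muscle and nerve, read 353, 444 and 470 against 291, 266 and 247 (log2 -0.65 ± 0.14). None passed the test with 12 arrays (limma adjusted p = 0.131, 0.131 and 0.151) or with 6 (0.105, 0.127 and 0.141), and none of the 3 overlapped between groups. Alb and Serpina1c, both known as products of the liver, read 178, 122 and 97.5 against 51.2, 25.7 and 54.7 (log2 -1.62 ± 0.39) and 131, 65.5 and 103 against 27.3, 35.1 and 27.8 (log2 -1.68 ± 0.38), both at low signal.

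Smaller or mixed lists complete the ranking. Clock genes had 6 of 19 positive values and a median of -0.06; Dbp, a clock output factor, read 709, 1005 and 1014 against 661, 569 and 685 (log2 -0.50 ± 0.24), while the clock repressor Bhlhe41 read 40.8, 67.7 and 69.7 against 102, 90.5 and 82.1 (log2 0.66 ± 0.24). Of the 5 Schwann cell markers tested, Sox10 read 47.0, 79.9 and 61.6 against 87.3, 117 and 138. The myelin gene Mbp read 50.8, 58.7 and 67.6 against 13.6, 27.6 and 47.7 in 1 probe set, but its other 3, the brightest included, overlapped (log2 -0.10 to 0.14). These 4 genes each separated the groups in the probe set given and none passed the test (limma adjusted p = 0.316 to 0.502). Among glucose and glycogen genes (12 of 21 positive, median 0.07) the glycogen enzyme Pgm1 read 5562, 5283 and 4886 against 6111, 6173 and 6280 (log2 0.24 ± 0.07). Among excitation and calcium genes (10 of 18 positive, median 0.05, turning to -0.01 after quantile normalization and -0.11 without vehicle array 1) the ATP-sensitive potassium channel Kcnj11 read 165, 268 and 266 against 317, 313 and 399 (log2 0.59 ± 0.18).

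Among translation and ribosome-building factors (13 of 30 positive, median -0.03), Polr1a, the large subunit of RNA polymerase I, read 39.3, 28.6 and 33.6 against 106, 64.9 and 112 (log2 1.45 ± 0.35) in its dimmest probe set, while its other 2, of which the brightest is counted in the list, overlapped (0.30 and 0.05). The initiation factor Eif5 read 1464, 1271 and 1416 against 1109, 959 and 1083 (log2 -0.40 ± 0.11), and its other 3 probe sets gave -0.28, -0.23 and -0.06. Both separated the groups, in opposite directions, in the probe sets whose signals are given, and neither passed the test (limma adjusted p = 0.219 and 0.28). Antioxidant genes had a median of -0.01 over 28 genes and a sign that turned in 4 settings; Txn2, the mitochondrial thioredoxin, read 538, 604 and 587 against 746, 764 and 716 (log2 0.37 ± 0.11, with 0.23 and 0.17 in its brighter probe sets), and Gstm1 read 1094, 1237 and 1519 against 1087, 875 and 1056 (log2 -0.34 ± 0.14). Insulin and growth factor genes (8 of 22 positive, median -0.03) included Akt2, a kinase of the insulin pathway, at 424, 468 and 530 against 576, 633 and 682 (log2 0.41 ± 0.11), but its brighter probe set, the one counted in the list, overlapped (0.11 ± 0.10). Pyruvate dehydrogenase genes (8 tested), lipid synthesis genes (20) and interferon response genes (18) had medians of 0.06, -0.01 and -0.05. Polyamine genes (7), matrix remodelling genes (19), smooth muscle markers (12) and secreted factors (9) had medians of 0.10, 0.12, 0.08 and 0.12.

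The same training was also measured under the drug, by setting the 3 combination arrays against the 3 GW arrays, which share no array with the comparison above. There, 409 genes (5.15%) had all trained arrays above all sedentary ones and 397 (5%) had them below. Groups of 3 arrays can also lie apart without an effect, and these counts carry no test. Of the 695 genes wholly above without the drug, 29 were wholly above with it, which is 4.17% of the 695 and 7.09% of the 409, and 30 of the 695 were wholly below. Of the 745 genes wholly below without the drug, 41 were wholly below with it, 5.50% of the 745 and 10.3% of the 397. The share with the same sign in both was 55.0% of the 695 and 52.2% of the 745, against 51.9% of all genes, and the median of the 695 went from 0.46 without the drug to 0.02 with it. These shares lie near the background. The 695 and the 745 were picked by the values without the drug, so a median nearer to 0 with it is not a measure of a drug effect.

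The called genes followed the same course in part. Of the 30 probe sets called higher, 25 had a positive value with the drug, and 4 lay wholly above: 1 of Dnajb1, 1 of Ier2 and both globin probe sets. The median log2 fold change of the 30 was 1.15 without the drug and 0.32 with it. They were called on the values without the drug, which favours large values there, so the lower median is not a measure of a drug effect. The beta-globin probe set read 3087, 2842 and 2998 in the GW arrays and 3510, 5393 and 4556 in the combination arrays (log2 0.57), close in size to the 0.63 without the drug. Of the 3 probe sets called lower, Abce1 lay wholly below, with 224, 231 and 243 in the GW arrays and 137, 197 and 97.9 in the combination arrays (log2 -0.75). Klf15 had a log2 fold change of -0.01 there and Ucp3 one of -0.13.

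Of the 13575 probe sets, 0 (0%) differed between the training effect with and without the drug by limma's interaction term at an adjusted p under 0.05, and 922 had an unadjusted p under 0.05. Leaving out combination array 1 gave 9 calls, GW array 2 gave 3 and vehicle array 1 gave 1. Combination array 1 also stood apart in Fos, with 460 against 92.5 and 39.2 in combination arrays 2 and 3, and in Dnajb1, with 1697 against 224 and 121. The shares of genes wholly above or below with the drug were not recomputed without that array.

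**Figure D5:**
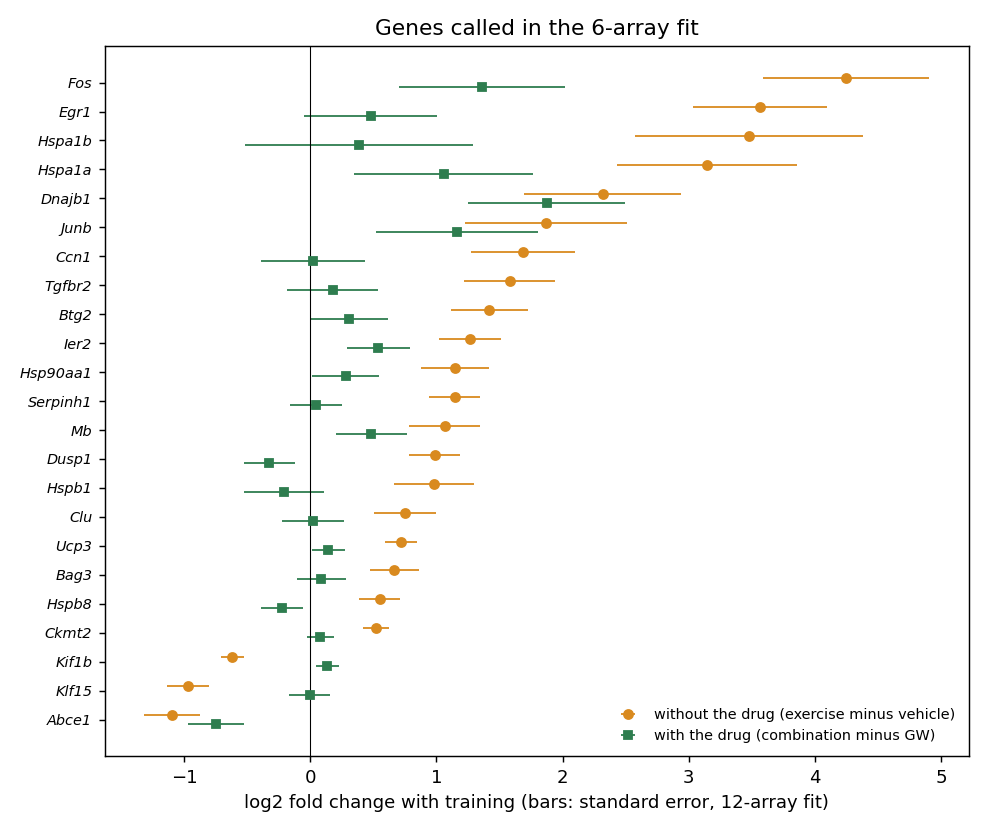
Log2 fold change of training without the drug (exercise against vehicle) and with it (combination against GW), each with its standard error, for the 23 genes called in either fit. Most genes lie nearer to 0 with the drug, and Abce1 (-1.09 and -0.75) and Dnajb1 (2.32 and 1.88) are among those with the nearest values. The genes were chosen by their values without the drug, which favours large values there. A value nearer to 0 with the drug is therefore not a measure of a drug effect.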

How the data were processed

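Total RNA of quadriceps, extracted with Trizol and pooled from 3 mice per array, was read on 12 arrays in 4 groups of 3, per the labels. The intensity values deposited by the authors are MAS5 signals, per the submitters' processing notes; the sources used here do not give its version. On every array the mean of the middle 96% of signals was the same, and no array had a signal at or below 0.

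From these values the 64 control probe sets of 22690 were left out, log2 was taken with no pseudocount, and the 13575 probe sets in the upper 60% by mean signal (above 28.4) were fitted with limma 3.58.1 (R 4.3.3; lmFit and eBayes with an intensity trend). The fit on 12 arrays left 8 residual degrees of freedom and that on 6 arrays 4; their median standard errors were 0.208 and 0.195, and the number of arrays limits the precision. Counts over genes used Python 3.11.15, numpy 2.4.6 and pandas 2.3.3, and figures matplotlib 3.10.9. The fit was tested on simulated data. Gene names came from the platform annotation: 20393 probe sets have 1 symbol, 691 several and 1606 none.

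Named genes were those called in either fit, the 20 highest and 20 lowest t values outside the immediate early and heat shock lists, up to 6 genes of smallest p per list, and 19 fixed training genes. The globin probe sets shared by several genes and the markers below the filter fall outside this rule and were named after their values were seen. The comparison, the lists and this rule were chosen with earlier results of these data known. Other scalings, filters, priors and left-out arrays were tried, with their effect given in the closing section. Labels give no array date or batch, so none was modelled.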

Additional observations from a re-analysis of the deposited data

How the results depend on the processing

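The 12-array count of 2 called probe sets became 0 with quantile or cyclic loess normalization, with a robust prior or with no intensity trend, 3 with a pseudocount, without the filter or with the upper 40% of signals, 20 with array weights and 33 with the 6 arrays alone. It ranged from 0 to 20 on leaving out single arrays: leaving out combination array 1 gave 20, combination array 3 gave 2, GW array 1 gave 10, GW array 2 gave 5, vehicle array 1 gave 4, and each other array gave 0. The 6-array count of 33, whose leave-one-out fits were added after the data were seen, ranged from 11 without exercise array 3 to 85 without vehicle array 1. The labels do not say whether replicate numbers pair the arrays, and the arrays were treated as unpaired. Same-numbered vehicle and exercise arrays had deviations from their group means correlated at -0.05, 0.02 and 0.01. With a replicate block the counts were 2 (12 arrays) and 20 (6 arrays), 18 of the 20 among the 33. The interaction count of 0 became 1 with array weights, 1 with the replicate block and 0 to 9 on leaving out single arrays. Of 44 list medians 12 turned sign in at least 1 setting, fast fibre genes among them (-0.01 with quantile normalization), and of 310 named probe sets 21 did. Signals near the filter limit what the dimmest genes show.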
